A study of Mus musculus with 8 samples.

Results

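The PI3K, AKT and mTOR pathway was described through 38 named genes, out of 38355 genes counted in whole colon tumours of mice. The genes are kinases, phosphatases, adaptors, FOXO factors and feedback regulators of the pathway. They were chosen with earlier results of these data known. All 38 were found by symbol, and all 38 had enough reads to be tested. The comparison was between tumours of the Trp53ΔIEC genotype and tumours of the Trp53ΔIECAktE17K genotype. In the usual mouse notation ΔIEC denotes a deletion limited to the intestinal epithelium, and AktE17K is a form of AKT with increased binding to the membrane, which activates it. Each group had 4 tumours, 1 from each of 4 mice, and every mouse of both groups had received azoxymethane, a colon carcinogen. By their labels both groups carry the Trp53 deletion and differ by the AktE17K allele. Whether they also differ in handling was not tested. The labels do not give the promoter driving the Cre, the Akt gene that carries the substitution, or the age and sex of the mice. A whole tumour also holds stroma, vessels and leukocytes, which an epithelial deletion leaves with the intact gene.

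Class I PI3K is a lipid kinase made of a catalytic and a regulatory subunit, and it turns a membrane lipid into the signal that recruits AKT. AKT is then phosphorylated by PDPK1 and by mTOR complex 2, and it inhibits the TSC complex, GSK3 and the FOXO factors. Release of Rheb from the TSC complex activates mTOR complex 1, which drives translation through the S6 kinases and the 4E-BP proteins, and active mTOR complex 1 in turn restrains the insulin receptor substrates. Most of this signalling is carried by phosphorylation, which messenger RNA counts do not measure.

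Assigned reads ranged from 18572180 to 26268547 per tumour, and a single pathway gene had between 17 and 10243 reads in a tumour. Trp53 itself had 20.8 to 25.8 CPM (counts relative to the TMM-scaled library size) in Trp53ΔIEC and 24.8 to 37.1 CPM in Trp53ΔIECAktE17K tumours, and gene-level counts do not separate deleted from intact transcripts.

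The 2 groups also differed in marker genes of other cell types, and the part of these in the differences of the pathway genes was not tested. Epithelial markers summed to 11209 to 14322 CPM in Trp53ΔIEC and 6495 to 15196 CPM in Trp53ΔIECAktE17K tumours, with Epcam, an epithelial adhesion gene, at 2062 to 2507 CPM against 1101 to 1890 CPM. Of these 12 markers 0 were called by edgeR or limma-voom and 2 by DESeq2, with 4 lower at an unadjusted p under 0.05 (33.3%). Over all genes tested, edgeR called 3.44% higher and 0.756% lower, and 20.8% had an unadjusted p under 0.05. DESeq2 called 12.1% and limma-voom 3.13% of the genes they tested. Stromal lists were higher: smooth muscle markers summed to 316 to 509 CPM against 1141 to 1850 CPM (7 of 10 called higher, Acta2 at 132 to 202 CPM against 267 to 425 CPM). Fibroblast markers summed to 2296 to 3563 CPM against 4672 to 7391 CPM (6 of 12 called higher, Col1a1 at 481 to 1052 CPM against 1452 to 2392 CPM). The fibroblast marker Pdgfra went the other way and was not called, at 77.0 to 193 CPM against 45.9 to 123 CPM. Pericyte markers summed to 142 to 218 CPM against 230 to 546 CPM (5 of 8 called higher, while Pdgfrb with 50.3 to 85.7 CPM against 59.1 to 111 CPM was not called). Enteric glia and neuron markers summed to 5.03 to 11.9 CPM against 38.1 to 106 CPM (5 of 8 called higher, Sox10 at 0 reads in all 4 Trp53ΔIEC tumours and 0.512 to 2.3 CPM in the others). Endothelial markers summed to 239 to 398 CPM against 320 to 603 CPM (1 of 10 called higher, Pecam1 not called at 34.3 to 48.7 CPM against 44.1 to 88.7 CPM), and adipocyte markers to 52.2 to 133 CPM against 58.7 to 170 CPM (1 of 4 tested called higher, Adipoq under 1 CPM in every tumour and not tested).

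Squamous epithelium markers separated the Trp53ΔIECAktE17K tumours from each other. They summed to 54.8 to 234 CPM in Trp53ΔIEC tumours and to 16394, 584, 198 and 2736 CPM in Trp53ΔIECAktE17K replicates 1 to 4, with 5 of 9 called higher by edgeR and 0 by limma-voom. Krt5, a basal keratin, had 0.0465 to 0.714 CPM in Trp53ΔIEC tumours and 4606, 121, 2.35 and 630 CPM in Trp53ΔIECAktE17K replicates 1 to 4. Heart muscle genes summed to 38.04 to 117 CPM against 202 to 269 CPM with 8 of 11 called higher, and Myh6, a heart myosin, had 0 to 0.223 CPM against 47.6 to 57.0 CPM. The heart genes Actc1, at 31.2 to 37.8 CPM, and Myl2, at 9.74 to 11.6 CPM, were likewise nearly equal in the 4 Trp53ΔIECAktE17K tumours. Since all 4 have this signal, it cannot be told apart from the genotype, and whether it comes from the tumours or from the handling of the libraries was not tested. The count of heart genes called is therefore not read here as a statement about tumour tissue. Hepatocyte genes summed to 95.5 to 150 CPM against 39.7 to 163 CPM (2 of 10 called lower, Alb not called at 21.4 to 34.7 CPM against 0.672 to 9.41 CPM). The 2 called were Crp, at 4.80 to 5.64 CPM against at most 0.0423 CPM, and Hpx, at 11.7 to 12.5 CPM against at most 2.84 CPM. Both were nearly equal in the 4 Trp53ΔIEC tumours. Fga, at 2.90 to 3.82 CPM, and Fgb, at 5.91 to 7.10 CPM, also varied little among these tumours. In Trp53ΔIECAktE17K tumours Fga had 0 to 1.69 CPM and Fgb 0.0466 to 126 CPM, and neither was called by edgeR. Of the 10 tested, 7 estimates lay below 0 and 3 above. Whether the Crp and Hpx signal comes from the tumours or from the handling of the libraries was not tested. The calls of Crp and Hpx are likewise not read here as a statement about tumour tissue. Immediate early genes summed to 1167 to 1594 CPM against 1066 to 1471 CPM (1 of 12 called higher, Fos not called at 60.4 to 202 CPM against 35.9 to 191 CPM).

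The upstream sequences of 4 genes are shown because these genes were among those whose groups did not overlap (below), and because Irs2 is an established target of FOXO factors. RefSeq promoters on GRCm38.p6 were found for 32 of the 38 genes, the others being Eif4ebp1, Foxo4, Sgk3, Deptor, Rps6kb2 and Insr. Each sequence is the 250 bases before the RefSeq start site, written 5′ to 3′ on the strand of the gene: Irs1 at chr1:82291440-82291689 on the minus strand, Irs2 at chr8:11008930-11009179 on the minus strand, Pik3ca at chr3:32396815-32397064 on the plus strand and Mtor at chr4:148448332-148448581 on the plus strand. Capitals mark 3 motifs on either strand: the E-box CACGTG, the FOXO-type motif CAAAACA and the ETS-type motif CCGGAAG. The reverse complements of the last 2 read TGTTTTG for the FOXO-type motif, and CTTCCGG for the ETS-type motif.
Irs1: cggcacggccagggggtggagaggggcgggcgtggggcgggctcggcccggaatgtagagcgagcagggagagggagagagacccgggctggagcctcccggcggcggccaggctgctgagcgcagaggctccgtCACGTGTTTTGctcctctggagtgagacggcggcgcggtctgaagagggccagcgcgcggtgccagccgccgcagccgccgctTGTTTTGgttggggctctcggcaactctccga
Irs2: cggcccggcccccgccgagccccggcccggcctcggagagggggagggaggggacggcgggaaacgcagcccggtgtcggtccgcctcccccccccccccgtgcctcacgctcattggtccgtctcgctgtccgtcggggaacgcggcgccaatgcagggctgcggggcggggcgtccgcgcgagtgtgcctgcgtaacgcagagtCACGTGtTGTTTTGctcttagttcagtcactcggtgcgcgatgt
Pik3ca: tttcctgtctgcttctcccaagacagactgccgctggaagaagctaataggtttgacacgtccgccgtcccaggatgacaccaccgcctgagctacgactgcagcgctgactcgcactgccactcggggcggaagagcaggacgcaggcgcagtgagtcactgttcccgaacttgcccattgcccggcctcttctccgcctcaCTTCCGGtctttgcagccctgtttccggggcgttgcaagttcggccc
Mtor: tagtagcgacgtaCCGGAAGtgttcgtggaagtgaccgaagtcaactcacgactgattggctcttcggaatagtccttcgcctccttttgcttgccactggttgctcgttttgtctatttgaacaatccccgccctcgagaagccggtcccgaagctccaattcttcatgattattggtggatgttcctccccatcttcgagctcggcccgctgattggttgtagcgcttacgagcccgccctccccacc
In Irs1 the E-box lay at bases -115 to -110 before the start and overlapped the FOXO-type motif at -111 to -105, and the FOXO-type motif was present once more at -32 to -26. In Irs2 the E-box lay at -44 to -39 and the FOXO-type motif at -37 to -31. On either strand, CACGTG occurred in 6.02% and CAAAACA in 5.56% of 32851 promoters of this length, and both together in 0.295%. Among the 48 promoters of pathway genes, both motifs were found in those of Irs1 and Irs2. Pik3ca had the ETS-type motif at -47 to -41 and Mtor at -237 to -231, and it occurred in 6.91% of all promoters and in 6 of the 48. Median promoter GC content was 62.4% for the pathway genes and 52% for all genes. The shares over all promoters are not matched for base composition. The forkhead motif GTAAACA, in 3.17% of all promoters, was in none of the 4 sequences. These 4 motifs were kept, and the 4 promoters chosen, after the matches and the expression values had been seen, out of 14 motifs searched on both strands. The others were TGATGNAA with a share of 3.45% of all promoters, TGATGCAA with 0.791%, TGACGTCA with 1.55%, TGACG with 17.8%, GGGCGG with 32.7%, CCAAT with 33.8%, TCACGTGA with 0.785%, GTGGGAA with 5.42%, the outer frame of the CArG box with 67.1% and the NRF1 palindrome with 3.74%. TGATGCAA is contained in TGATGNAA, TGACG in TGACGTCA, and CACGTG in TCACGTGA. A match describes the letters and not binding. Positions count from the RefSeq start, which can lie outside the gene as annotated in GENCODE M21. The Pik3ca sequence ends at 32397064, and the annotated gene starts at 32397671. The Irs2 sequence lies from 11008930 upward, and the annotated gene, on the minus strand, reaches to 11008458.

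Summed over the pathway, transcript levels of the 2 genotypes overlapped. The 38 genes summed to 2547 to 2619 CPM in Trp53ΔIEC and 2476 to 2831 CPM in Trp53ΔIECAktE17K tumours. Estimates lay above 0 for 18 genes and below 0 for 20, with a median log2 fold change (Trp53ΔIECAktE17K over Trp53ΔIEC) of -0.04, against 0.01 over all 16539 genes tested. The median size of the change was 0.20 on the log2 scale, against 0.30 over all genes. Pik3ca was called lower by edgeR's quasi-likelihood test at a Benjamini-Hochberg adjusted p under 0.05, and no gene was called higher. That is 1 of 38, or 2.63%, where 4.2% of all genes were called (3.44% higher and 0.756% lower). At an unadjusted p under 0.05 there were 6 of 38 (15.8%), against 20.8% of all genes. The 2 groups did not overlap for 6 of 38 (15.8%), against 14.2% of all genes. DESeq2 called 3 (Pik3ca, Irs2 and Pik3r1), where it called 12.1% of all genes, and limma-voom called 1 (Irs2), where it called 3.13%. These shares lie near or below the background and are no result about the pathway genes, so what follows describes single genes.

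**Figure D1:**
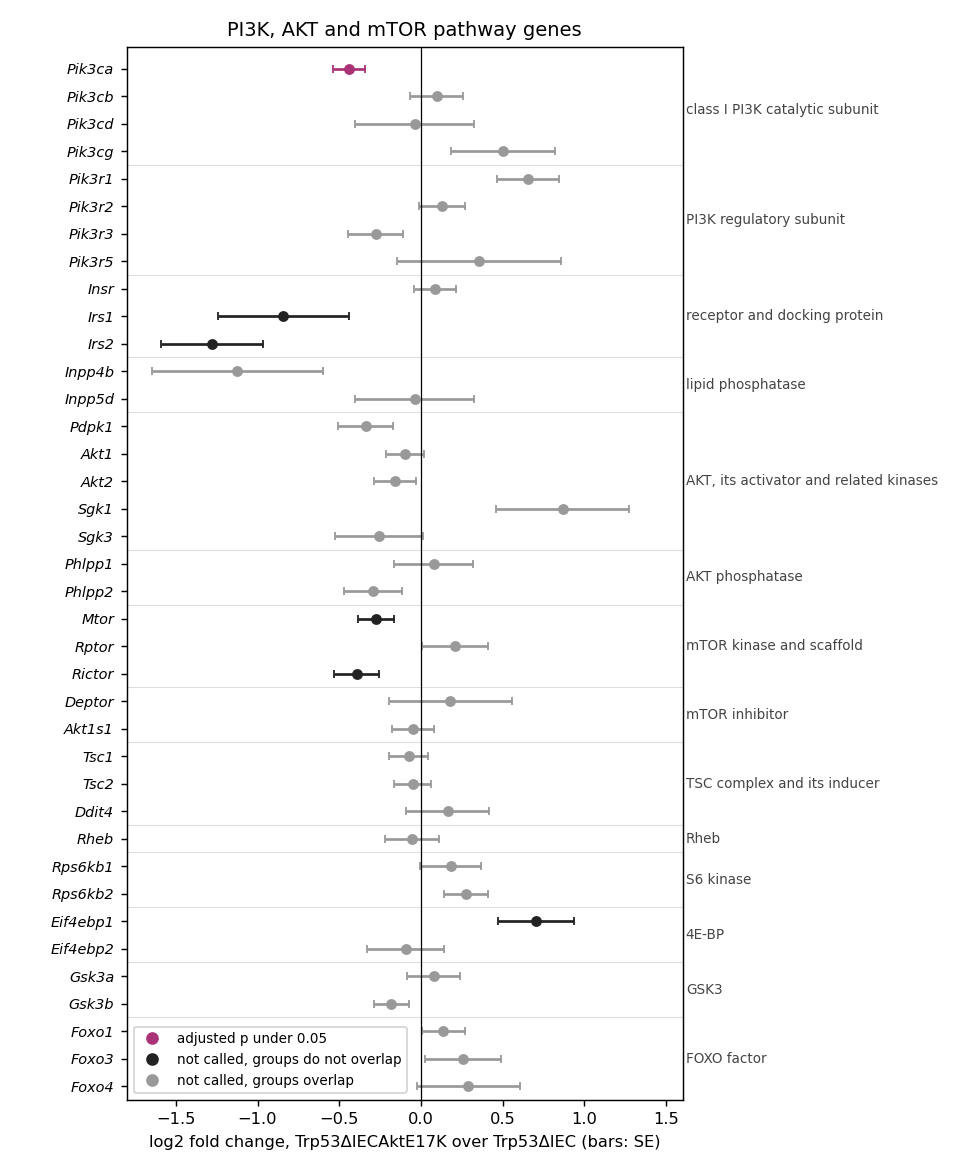
Log2 fold change (Trp53ΔIECAktE17K over Trp53ΔIEC) with its standard error for each of the 38 pathway genes, grouped by role. Irs2 and Inpp4b lie below -1, the other estimates lie between -1 and 1, and Pik3ca, in purple, is the gene called.

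**Figure D2:**
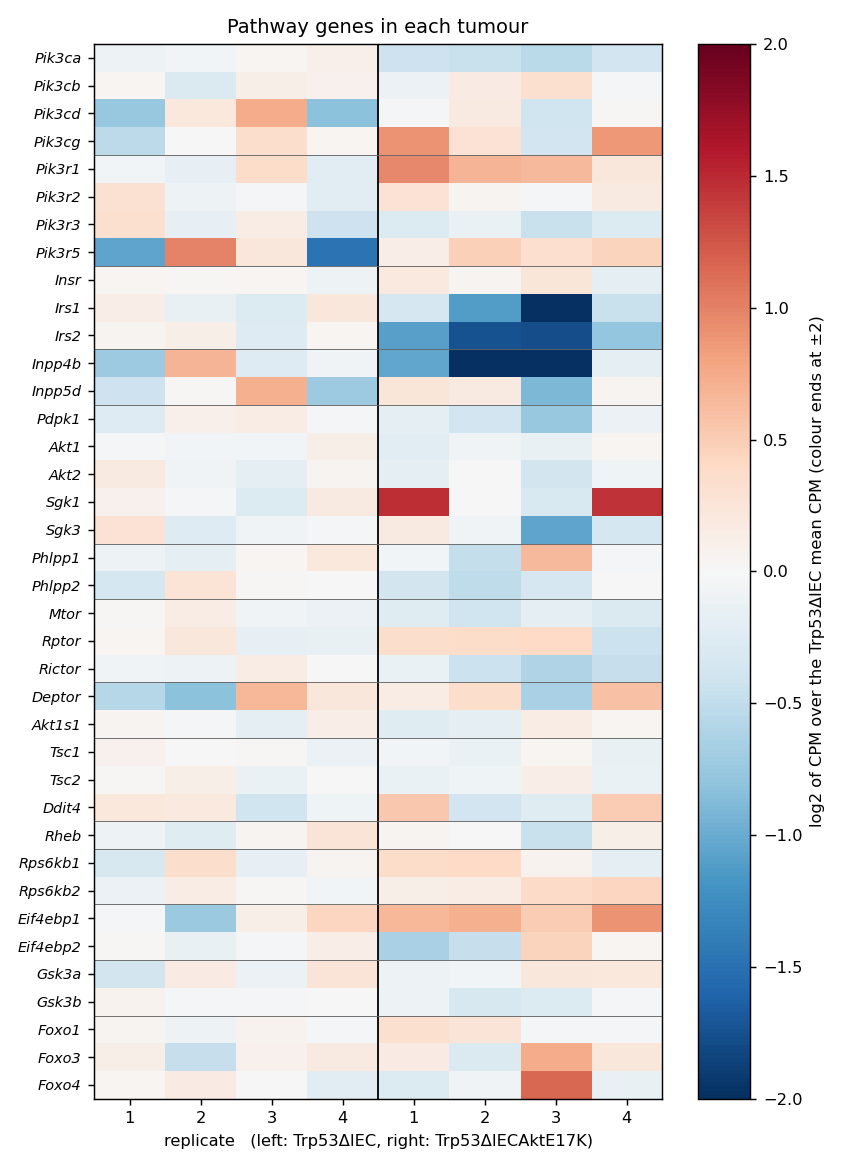
Colour shows the log2 of each tumour's CPM over the mean CPM of the 4 Trp53ΔIEC tumours for each of the 38 genes, with replicates 1 to 4 of Trp53ΔIEC at the left and of Trp53ΔIECAktE17K at the right. In the Trp53ΔIECAktE17K tumours Irs2 is blue, as are Irs1, palest in replicate 1, and Inpp4b, nearly white in replicate 4. Sgk1 is dark red in 2 of these tumours, and values beyond 2 in size have the end colour.

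Split by arm, estimates lay on both sides of 0 among the genes that promote signalling and among those that restrain it. Of the 18 positive components 1 was called lower, 7 estimates were above and 11 below 0 (median -0.08), and 4 had an unadjusted p under 0.05 (22.2%, against 20.8% of all genes). Groups did not overlap for 5 of the 18 (27.8%), all 5 lower, where 14.2% of all genes did not overlap and 5.88% did not overlap and were lower. The arms were drawn up with earlier results known, so these shares describe the list and support nothing about the arm. Of the 11 negative regulators 0 were called by edgeR, DESeq2 or limma-voom (1 at an unadjusted p under 0.05, 9.09%), 4 estimates were above and 7 below 0 (median -0.05), and Eif4ebp1 was the member with non-overlapping groups. Of the 4 regulatory subunits of PI3K 0 were called by edgeR or limma-voom and 1 by DESeq2 (1 at an unadjusted p under 0.05). Of the 5 substrates that AKT inhibits 0 were called by any of the 3 tools (0 at an unadjusted p under 0.05), with 4 of 5 estimates above 0 (median 0.14). The difference between the arms was not tested.

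Among the catalytic subunits, Pik3ca, which encodes the alpha catalytic subunit found in most cells, was lower in Trp53ΔIECAktE17K tumours. Its gene lies at chr3:32397671-32468486 on mm10. Pik3ca had 87.4, 91.0, 96.9 and 101.6 CPM in Trp53ΔIEC replicates 1 to 4, and 70.9, 69.1, 65.1 and 72.6 CPM in Trp53ΔIECAktE17K replicates 1 to 4. Every Trp53ΔIEC tumour lay above every Trp53ΔIECAktE17K tumour. The means were 94.2 ± 6.31 and 69.4 ± 3.20 CPM (SD, n = 4), a log2 fold change of -0.44 (SE 0.10) or 1.36-fold lower, with an edgeR adjusted p of 0.0480. The call held with DESeq2 and with RLE scaling and was lost in the other 14 of 16 alternatives. With any 1 tumour left out the log2 fold change stayed between -0.48 and -0.40, with adjusted p between 0.0520 and 0.122. The tissue marker sums given above move with the same genotype, and their part in this difference was not tested.

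The other catalytic genes did not pass the test. Pik3cb, the beta subunit, had 18.8 to 25.1 CPM in Trp53ΔIEC and 21.3 to 28.7 CPM in Trp53ΔIECAktE17K tumours (log2 fold change 0.10, adjusted p = 0.785). Per kilobase of exon, Pik3ca made up 61.5%, 57.6%, 51.4% and 62.8% of the level of the 4 catalytic genes in Trp53ΔIEC tumours, and 47.5%, 46.8%, 49.6% and 47.5% in Trp53ΔIECAktE17K tumours. Pik3ca thus had the largest share in all 8 tumours, and the shares of the 2 groups did not overlap. This share was computed after the values had been seen and was not tested.

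Pik3cd and Pik3cg, the catalytic subunits best known from leukocytes, are read here beside Ptprc, the gene of the pan-leukocyte surface phosphatase. Pik3cd had 9.54 to 28.2 CPM in Trp53ΔIEC and 12.8 to 19.0 CPM in Trp53ΔIECAktE17K tumours (log2 fold change -0.04, adjusted p = 0.970). Pik3cg had 9.49 to 17.5 CPM against 10.5 to 25.5 CPM (0.50, adjusted p = 0.409). In whole tumours, fewer cells of a type and less RNA per cell cannot be told apart. Ptprc ranged from 20.1 to 77.3 CPM in Trp53ΔIEC and from 16.5 to 42.1 CPM in Trp53ΔIECAktE17K tumours. Of 12 leukocyte, 11 macrophage, 8 neutrophil and 10 T cell markers tested, 0 were called by edgeR; their sums were 245 to 645, 685 to 1526, 313 to 584 and 32.8 to 108 CPM in Trp53ΔIEC tumours and 212 to 574, 582 to 1711, 226 to 967 and 45.7 to 106 CPM in Trp53ΔIECAktE17K tumours. Their first genes had 19.1 to 44.3 CPM against 14.5 to 29.1 CPM for Adgre1 (macrophages), 2.64 to 201 CPM against 54.7 to 315 CPM for S100a8 (neutrophils) and 0.574 to 4.80 CPM against 0.168 to 2.61 CPM for Cd3d (T cells). At an unadjusted p under 0.05 these 4 lists had 0, 1, 1 and 1 genes, where 20.8% of all genes did. DESeq2 called 1 T cell marker, where it called 12.1% of all genes, and limma-voom called 0. That marker was Thy1, with 6.51 to 18.6 CPM in Trp53ΔIEC and 23.8 to 65.2 CPM in Trp53ΔIECAktE17K tumours, and the T cell sums above include it. Of the 10 T cell estimates 8 lay below 0 and 2 above, with a median log2 fold change of -0.89.

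Pik3cd, Pik3cg, Pik3r5 and Inpp5d were each set against Ptprc reads in each tumour. Pik3cd had 0.402 ± 0.0649 reads per Ptprc read in Trp53ΔIEC and 0.534 ± 0.165 in Trp53ΔIECAktE17K tumours (SD, n = 4; two-sided exact permutation p = 0.114). Pik3cg had 0.376 ± 0.153 against 0.593 ± 0.124 (exact permutation p = 0.114). Pik3r5, a regulatory subunit of the gamma enzyme, had 0.220 ± 0.109 against 0.420 ± 0.210 (exact permutation p = 0.114). Inpp5d, which encodes the leukocyte lipid phosphatase SHIP, had 0.542 ± 0.178 against 0.638 ± 0.0835 (exact permutation p = 0.286). All 4 ratios had a higher mean in Trp53ΔIECAktE17K tumours, their groups overlapped, and none passed the test. After Benjamini-Hochberg adjustment over the 4 ratios, p was 0.152, 0.152, 0.152 and 0.286 by exact permutation, where 4 against 4 tumours cannot give less than 0.0286. With the summed leukocyte markers as the denominator in place of Ptprc, all 4 log2 differences were smaller or below 0: Pik3cd went from 0.38 to -0.03, Inpp5d from 0.28 to -0.13, Pik3cg from 0.72 to 0.32 and Pik3r5 from 0.95 to 0.54.

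**Figure D3:**
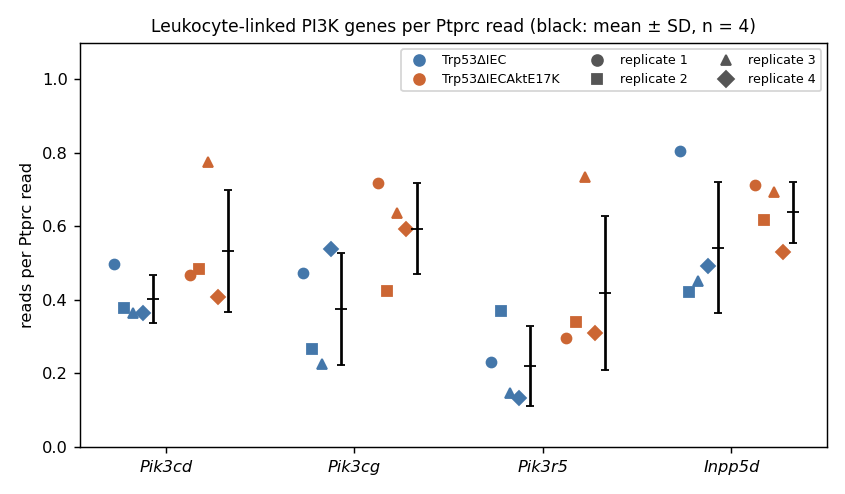
Reads of 4 leukocyte-linked pathway genes per read of Ptprc in each tumour, with the mean and SD of each group of 4 in black. Trp53ΔIECAktE17K means are higher for all 4 genes, and the points of the groups overlap.

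Of the regulatory subunits, Pik3r1, which encodes the main alpha regulatory subunits, had the largest log2 fold change of the 8 PI3K subunit genes. Pik3r1 had 64.6, 59.5, 86.1 and 57.6 CPM in Trp53ΔIEC replicates 1 to 4, and 129.8, 107.3, 105.2 and 78.7 CPM in Trp53ΔIECAktE17K replicates 1 to 4. Trp53ΔIECAktE17K replicate 4 lay below Trp53ΔIEC replicate 3, so the groups overlapped. The log2 fold change was 0.65 (SE 0.19, edgeR adjusted p = 0.0999), and DESeq2 called the gene (adjusted p = 0.0432). Pik3r2, the beta subunit, had 82.4 to 117.9 CPM against 94.2 to 116.6 CPM (log2 fold change 0.13, adjusted p = 0.652). Pik3r3, the gamma regulatory subunit, had 62.4 to 102.9 CPM against 60.6 to 75.6 CPM (-0.28, adjusted p = 0.389). Pik3r5 had 3.44 to 19.0 CPM against 10.5 to 13.3 CPM (0.35, adjusted p = 0.735), with the wider spread among Trp53ΔIEC tumours.

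Per kilobase of exon, Pik3r2 was the largest of Pik3r1, Pik3r2 and Pik3r3 in every tumour, with 50.9% ± 3.05 of their sum in Trp53ΔIEC and 51.8% ± 2.91 in Trp53ΔIECAktE17K tumours (SD, n = 4). The order below it was Pik3r3 then Pik3r1, nearly equal at 24.1% and 24.0% in Trp53ΔIECAktE17K replicate 1, with Pik3r1 at 14.8% ± 2.42 against 21.5% ± 3.33 and Pik3r3 at 34.3% ± 2.06 against 26.7% ± 2.28. The length-scaled ratio of Pik3r1 to Pik3ca was 0.511 to 0.801 in Trp53ΔIEC tumours and 0.977 to 1.65 in Trp53ΔIECAktE17K tumours. The 2 ranges did not overlap; the ratio was formed after both genes had been seen to differ and was not tested.

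**Figure D4:**
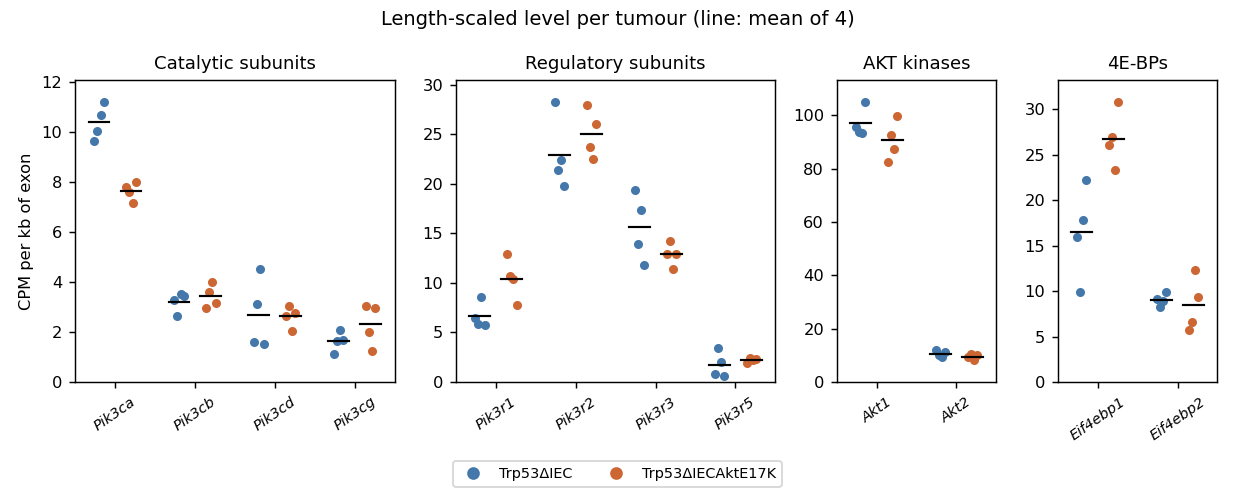
CPM per kilobase of exon in each tumour for the catalytic and regulatory PI3K subunits, the AKT kinases and the 4E-BP genes, with a line at the mean of 4. Pik3ca lies in every Trp53ΔIECAktE17K tumour below the lowest Trp53ΔIEC tumour, and Akt1 exceeds Akt2 in all 8 tumours.

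At the receptor, the insulin receptor gene Insr had 49.4 to 54.8 CPM in Trp53ΔIEC and 46.6 to 63.3 CPM in Trp53ΔIECAktE17K tumours (log2 fold change 0.09, adjusted p = 0.746). The docking proteins that carry its signal to PI3K had lower values in Trp53ΔIECAktE17K tumours. Irs2, at chr8:10984681-11008458 on mm10, had 6.16, 6.43, 4.92 and 6.10 CPM in Trp53ΔIEC replicates 1 to 4, and 2.79, 1.77, 1.72 and 3.45 CPM in Trp53ΔIECAktE17K replicates 1 to 4. All 4 Trp53ΔIECAktE17K values lay under the lowest Trp53ΔIEC value. Irs2 differed by -1.28 on the log2 scale (SE 0.31, 2.42-fold), and the edgeR adjusted p of 0.0615 missed the threshold. Irs2 was called in 4 of 16 alternatives: DESeq2 (adjusted p = 0.000244), limma-voom (0.0470), without Trp53ΔIECAktE17K replicate 4 (edgeR, 0.0385) and without its replicates 1 and 4 together (edgeR, 0.0438).

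Per kilobase of exon, Irs1 stood at 0.332 ± 0.0526 CPM and Irs2 at 0.933 ± 0.106 CPM in Trp53ΔIEC tumours (SD, n = 4). Irs1, at chr1:82233101-82291416 on mm10, had 3.33, 2.74, 2.51 and 3.54 CPM in Trp53ΔIEC replicates 1 to 4, and 2.41, 1.40, 0.71 and 2.24 CPM in Trp53ΔIECAktE17K replicates 1 to 4. The groups did not overlap, although 2.51 and 2.41 CPM lie close. Irs1 differed by -0.84 on the log2 scale (SE 0.40, adjusted p = 0.275). These values rest on 45 to 87 reads per Trp53ΔIEC tumour and 17 to 57 reads per Trp53ΔIECAktE17K tumour. Of the exon length of Irs1, 30.9% overlaps Gm9747 on the opposite strand, and without strand information reads of the 2 genes there cannot be told apart. Reads left ambiguous count for no gene, so the level of Irs1 per kilobase of its full exon length may be too low. The same limit holds for Gsk3a (28.3%) and Rps6kb2 (24.6%), which also overlap genes on the opposite strand. Irs1 and Irs2 are the promoters shown above with both the E-box and the FOXO-type letters.

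Of the lipid phosphatases, Inpp4b, which removes a phosphate from a PI3K product, had 1.95, 5.15, 2.68 and 3.07 CPM in Trp53ΔIEC replicates 1 to 4, and 1.57, 0.74, 0.76 and 2.84 CPM in Trp53ΔIECAktE17K replicates 1 to 4. Trp53ΔIECAktE17K replicate 4 reached into the Trp53ΔIEC range. Inpp4b differed by -1.12 on the log2 scale (SE 0.52, adjusted p = 0.265), on 18 to 137 reads per tumour. Inpp5d had 12.9 to 34.9 CPM against 11.4 to 25.3 CPM (log2 fold change -0.04, adjusted p = 0.968).

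Neither AKT gene passed the test. Akt1 had 392.0, 384.7, 383.1 and 430.2 CPM in Trp53ΔIEC replicates 1 to 4, and 338.2, 379.5, 357.8 and 409.6 CPM in Trp53ΔIECAktE17K replicates 1 to 4. The groups overlapped, and the log2 fold change was -0.10 (SE 0.11, adjusted p = 0.669). Akt2 had 66.7 to 86.0 CPM against 58.6 to 75.8 CPM (log2 fold change -0.16, SE 0.13, adjusted p = 0.522). Per kilobase of exon, Akt1 made up 90.1% ± 0.913 of the sum of Akt1 and Akt2 in Trp53ΔIEC and 90.5% ± 0.798 in Trp53ΔIECAktE17K tumours (SD, n = 4). Counts per gene do not separate an E17K transcript from the wild-type one. Pdpk1, which encodes the kinase that activates AKT, had 63.4 to 84.3 CPM against 44.6 to 70.1 CPM (log2 fold change -0.34, SE 0.17, adjusted p = 0.289).

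Sgk1, a kinase related to AKT and induced by stress and steroid signals, split the Trp53ΔIECAktE17K tumours. Sgk1 had 81.6, 74.6, 63.4 and 86.8 CPM in Trp53ΔIEC replicates 1 to 4, and 212.9, 76.3, 61.7 and 207.8 CPM in Trp53ΔIECAktE17K replicates 1 to 4. Replicates 1 and 4 stood far above the other 6 tumours, and replicates 2 and 3 lay within or just under the Trp53ΔIEC range. The log2 fold change was 0.87 (SE 0.41, adjusted p = 0.270). Replicates 1 and 4 are also those with the highest squamous sums, 16394 and 2736 CPM, and whether that bears on Sgk1 was not tested. Without these 2 tumours, an alternative added after the data had been seen, the log2 fold change was -0.18 (SE 0.18, adjusted p = 0.593). They hold the 2 highest Sgk1 values, so a lower estimate without them follows from the choice. Sgk3, a related kinase, had 15.9 to 23.0 CPM against 9.11 to 21.3 CPM (-0.26, adjusted p = 0.638). The phosphatases that remove phosphate from AKT did not pass the test. Phlpp1 had 23.1 to 30.5 CPM against 18.9 to 41.2 CPM (log2 fold change 0.08, adjusted p = 0.891), and Phlpp2 had 24.1 to 37.1 CPM against 21.6 to 30.5 CPM (-0.29, adjusted p = 0.390).

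**Figure D5:**
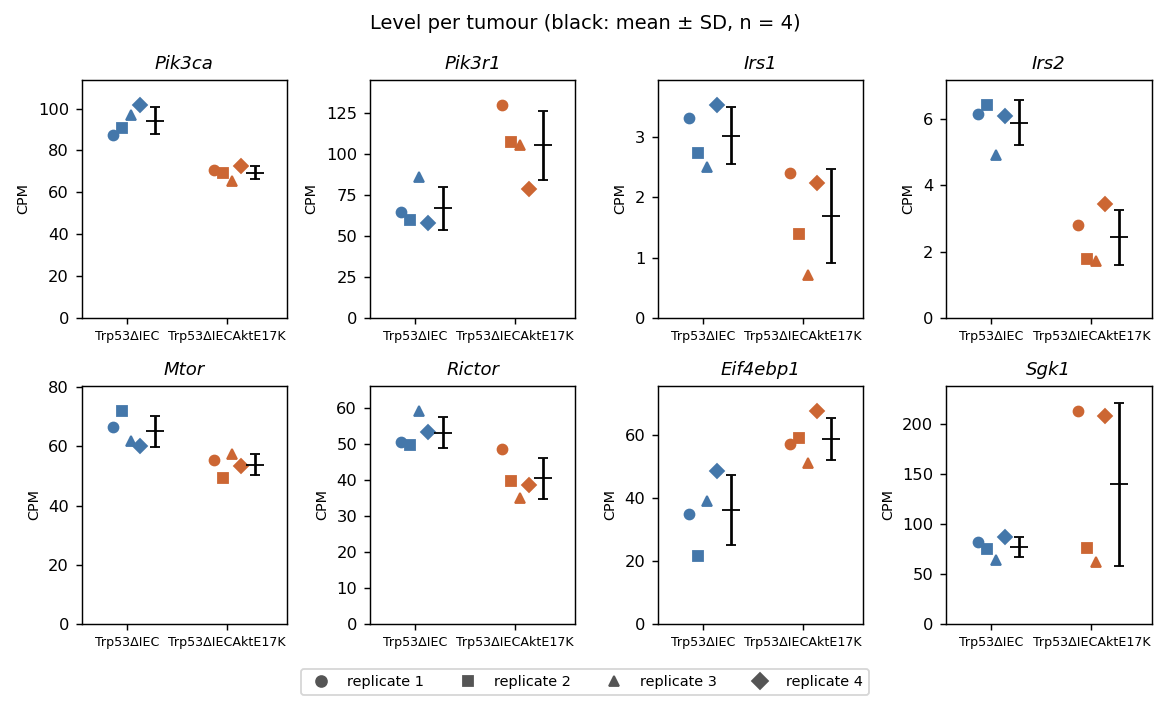
CPM in each tumour for Pik3ca, Pik3r1, Irs1, Irs2, Mtor, Rictor, Eif4ebp1 and Sgk1, with a marker shape for each replicate number and the mean ± SD of 4 in black. Pik3ca, Irs1, Irs2, Mtor, Rictor and Eif4ebp1 show no overlap between the genotypes, and Sgk1 is high in Trp53ΔIECAktE17K replicates 1 and 4.

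Of the genes of the mTOR complexes, Mtor, the kinase of both complexes, and Rictor, the scaffold of complex 2, had lower values in Trp53ΔIECAktE17K tumours. Mtor had 66.6, 71.9, 61.9 and 60.3 CPM in Trp53ΔIEC replicates 1 to 4, and 55.3, 49.3, 57.5 and 53.3 CPM in Trp53ΔIECAktE17K replicates 1 to 4. Rictor had 50.7, 49.9, 59.2 and 53.3 CPM in Trp53ΔIEC replicates 1 to 4, and 48.6, 39.8, 35.2 and 38.7 CPM in Trp53ΔIECAktE17K replicates 1 to 4. Neither gene overlapped between the groups, although 48.6 and 49.9 CPM of Rictor lie close. Mtor differed by -0.27 on the log2 scale (SE 0.11, edgeR adjusted p = 0.200) and Rictor by -0.39 (SE 0.14, edgeR adjusted p = 0.147). Neither was called. Rptor, the scaffold of complex 1, had 51.0 to 66.4 CPM against 72.1, 73.4, 74.9 and 42.0 CPM (log2 fold change 0.21, adjusted p = 0.601), so 3 of 4 Trp53ΔIECAktE17K tumours lay above every Trp53ΔIEC tumour and replicate 4 below all of them. Without replicate 4 its log2 fold change was 0.35 (SE 0.14, adjusted p = 0.171).

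None of the inhibitors and inputs of mTOR complex 1 passed the test. Deptor, an inhibitor bound to both complexes, had 22.7 to 63.8 CPM against 25.5 to 60.5 CPM (log2 fold change 0.18, adjusted p = 0.828). Akt1s1, an inhibitor of complex 1 that AKT phosphorylates, had 85.4 to 106.0 CPM against 81.6 to 107.1 CPM (-0.05, adjusted p = 0.874). The tumour suppressor genes Tsc1 (log2 fold change -0.08, SE 0.12, adjusted p = 0.764) and Tsc2 (-0.05, SE 0.11, adjusted p = 0.836) and the small GTPase Rheb (-0.06, SE 0.16, adjusted p = 0.883) had estimates closer to 0 than their standard errors. Ddit4, a stress-induced activator of the TSC complex, had 273.7, 271.3, 179.6 and 223.0 CPM in Trp53ΔIEC replicates 1 to 4, and 344.0, 180.8, 199.8 and 336.3 CPM in Trp53ΔIECAktE17K replicates 1 to 4. As with Sgk1, replicates 1 and 4 were the highest of all 8 tumours, and the log2 fold change over all tumours was 0.16 (adjusted p = 0.760).

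Downstream of mTOR, Eif4ebp1, which encodes the translation repressor 4E-BP1, was the pathway gene whose groups did not overlap with the higher values in Trp53ΔIECAktE17K tumours. Eif4ebp1 had 35.1, 21.7, 39.1 and 48.7 CPM in Trp53ΔIEC replicates 1 to 4, and 57.4, 59.1, 51.2 and 67.6 CPM in Trp53ΔIECAktE17K replicates 1 to 4. The groups did not overlap, with 48.7 and 51.2 CPM as the nearest values. Its log2 fold change was 0.70 (SE 0.23, edgeR adjusted p = 0.137), and the gene was not called in any of the 16 alternatives. Eif4ebp2, its paralogue, had 47.6 to 57.4 CPM against 33.3 to 71.3 CPM (log2 fold change -0.09, adjusted p = 0.863). Per kilobase of exon, Eif4ebp1 made up 63.4% ± 6.35 of the pair in Trp53ΔIEC and 76.1% ± 7.47 in Trp53ΔIECAktE17K tumours (SD, n = 4), and the groups overlapped. The S6 kinase genes, whose products phosphorylate ribosomal protein S6, were not called. Rps6kb1 had 85.6 to 135.0 CPM against 94.1 to 140.0 CPM (log2 fold change 0.18, adjusted p = 0.625), and Rps6kb2 had 28.013 to 33.7 CPM against 33.3 to 41.0 CPM (0.28, SE 0.13, adjusted p = 0.286).

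Of the substrates that AKT inhibits, the kinases of glycogen synthesis and beta-catenin turnover were not called. Gsk3a had 80.5 to 123.8 CPM against 96.5 to 122.0 CPM (log2 fold change 0.08, adjusted p = 0.830), and Gsk3b had 123.2 to 133.5 CPM against 101.6 to 124.2 CPM (-0.18, adjusted p = 0.377). The forkhead factors, which AKT keeps out of the nucleus, were not called either. Foxo1 had 37.2 to 41.7 CPM against 38.7 to 49.9 CPM (log2 fold change 0.14, adjusted p = 0.599), and Foxo3 had 48.3 to 75.2 CPM against 54.1 to 110.5 CPM (0.26, adjusted p = 0.574). Foxo4 had 54.2, 59.2, 53.0 and 45.3 CPM in Trp53ΔIEC replicates 1 to 4, and 43.6, 50.7, 117.0 and 47.6 CPM in Trp53ΔIECAktE17K replicates 1 to 4. Replicate 3 of Trp53ΔIECAktE17K stood apart from the other 7 tumours. The log2 fold change was 0.29 (adjusted p = 0.649), and -0.16 without that tumour (adjusted p = 0.553).

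Genes known as FOXO targets were read as a readout next to the factors, from a list of 30 of which 28 were tested. By edgeR and by limma-voom 0 were called, and 8 of 28 (28.6%) had an unadjusted p under 0.05 (3 higher and 5 lower), where 20.8% of all genes did. DESeq2 called 4 of the 29 it tested, where it called 12.1% of all genes: the 3 named below and Trim63, a muscle ubiquitin ligase. Trim63 was left out by edgeR's filter and is named after its call was seen. It had 0 to 3 reads per Trp53ΔIEC tumour and 9 to 12 reads per Trp53ΔIECAktE17K tumour. At 0.419 to 0.494 CPM it was nearly equal in these last 4, as were the heart genes above. Whether the Trim63 signal comes from the tumours or from the handling of the libraries was not tested. Over the 28 genes edgeR tested, the median log2 fold change was -0.14, against 0.01 over all genes. Gadd45a, a DNA damage response gene, had 18.2 to 31.3 CPM in Trp53ΔIEC and 32.8 to 104.8 CPM in Trp53ΔIECAktE17K tumours, without overlap (log2 fold change 1.24, SE 0.37, adjusted p = 0.109). Pdk4, a mitochondrial kinase that limits glucose oxidation, had 15.9 to 25.1 CPM against 2.90 to 15.2 CPM, also without overlap (-1.41, SE 0.48, adjusted p = 0.142). Atg14, an autophagy gene, had 26.3 to 28.4 CPM against 15.8 to 23.0 CPM, without overlap (-0.45, SE 0.15, adjusted p = 0.144). These 3 had the smallest p of the list, with estimates in both directions.

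The wider pathway list had 73 further genes, of which 71 were tested, and 3 were called higher and 0 lower (4.23%, against 4.2% of all genes). Its median log2 fold change was 0.03, and 16 of 71 (22.5%) had an unadjusted p under 0.05, against 20.8% of all genes. Trib3, a stress-induced pseudokinase that binds AKT, had 7.08, 4.55, 6.15 and 12.6 CPM in Trp53ΔIEC replicates 1 to 4, and 17.6, 34.7, 64.3 and 19.9 CPM in Trp53ΔIECAktE17K replicates 1 to 4. Prr5l, a subunit of mTOR complex 2, had 2.60, 3.38, 6.15 and 2.98 CPM against 16.8, 15.1, 16.8 and 8.71 CPM. Tbc1d4, an AKT substrate that controls glucose transporter traffic, had 6.16, 8.91, 12.1 and 11.9 CPM against 22.8, 24.5, 25.7 and 18.0 CPM. In each of the 3 the groups did not overlap. The log2 fold changes were 2.17 (SE 0.49, adjusted p = 0.0490) for Trib3, 1.93 (SE 0.36, adjusted p = 0.0277) for Prr5l and 1.22 (SE 0.25, adjusted p = 0.0396) for Tbc1d4, by edgeR with Benjamini-Hochberg adjustment. With 1 tumour left out in turn Trib3, Prr5l and Tbc1d4 kept their calls in 1, 3 and 1 of 8 runs, with adjusted p from 0.0387 to 0.129, from 0.0191 to 0.0917 and from 0.0355 to 0.110. The muscle, fibroblast and squamous markers given above move with the same genotype, and their part in these 3 differences was not tested.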

How the data were processed

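RNA was measured in 8 whole tumours. The authors deposited raw counts, the reads falling in each Ensembl gene, for every tumour. The submitters' processing notes list CASAVA 1.8.2, STAR 2.3.0, SAMtools 1.2, HTSeq 0.6, DESeq2 1.8.1 and the build mm10, with no roles. The strand setting is not stated, and the kit does not mark strand. The 5 closing lines of unassigned reads were set aside (no feature 9.74% to 11.7%), and reads with several places in the genome count for no gene.

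Symbols and exon lengths came from GENCODE M21 on GRCm38, which is mm10 (95.4% of identifiers matched). Genes passing filterByExpr were TMM-scaled and tested by edgeR 4.0.16's quasi-likelihood test (R 4.3.3) with group as the only term, with Benjamini-Hochberg adjustment over 16539 genes and a threshold of 0.05. Fold changes are Trp53ΔIECAktE17K over Trp53ΔIEC. Ratios to Ptprc (0.5 reads added) were tested by exact permutation, two-sided, over 70 assignments. Alternatives were DESeq2 1.42.0, limma-voom (limma 3.58.1), RLE and upper-quartile scaling, no filter, a replicate block, the title letter as a term, and each tumour left out.

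The 38 genes and the 18 pathway and marker lists were chosen with earlier results of these data known. The result of 1 marker list is not reported here. Genes are described in full if called, at an unadjusted p under 0.05, without overlap between groups, or needed by role (Akt1, Akt2, Pik3ca, Mtor). From the wider pathway and FOXO target lists up to 8 called genes are named, or the 3 with the smallest p. Each tumour came from its own mouse, so p-values measure variation between mice.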

Additional observations from a re-analysis of the deposited data

Results flagged for a closer look

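In 5 of the 84 groups of 4 values checked, a single tumour lay far from the others of its group, and chance alone flags about 1 in 20 groups. Insr had 49.4 CPM in Trp53ΔIEC replicate 4, against 54.3 to 54.8 CPM in the other 3 tumours. Rptor had 42.0 CPM in Trp53ΔIECAktE17K replicate 4, against 72.1 to 74.9 CPM. Foxo4 had 117 CPM in Trp53ΔIECAktE17K replicate 3, against 43.6 to 50.7 CPM. Pik3cd had 0.499 reads per Ptprc read in Trp53ΔIEC replicate 1, against 0.364 to 0.379. Pik3r5 had 0.733 reads per Ptprc read in Trp53ΔIECAktE17K replicate 3, against 0.298 to 0.339; Ptprc was lowest in that tumour, at 16.5 CPM.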

How the results depend on the processing

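The count of pathway genes called was 1 with edgeR, 3 with DESeq2 (Pik3ca, Irs2 and Pik3r1), 1 with limma-voom (Irs2), 1 with RLE scaling and 0 with upper-quartile scaling, without the filter, with the title letter as a term and with the replicate block. It was 0 to 1 with 1 tumour left out, and 1 (Irs2) without Trp53ΔIECAktE17K replicates 1 and 4, a setting added after the data were seen. In the titles, 2 Trp53ΔIECAktE17K tumours (replicates 1 and 2) carry the letter A and all others B, whereas the codes of the tables mark all 4 Trp53ΔIECAktE17K tumours A, and the letter's meaning is unknown. Among all genes 694 were called, 2489 with DESeq2, 50 with the replicate block, 96 with the title letter and 74 to 949 with 1 tumour left out. Of the wider pathway genes 3 were called, 10 with DESeq2, 0 with the block, 0 with the letter and 0 to 6 with 1 tumour left out. Of the FOXO targets 0 were called, 4 with DESeq2, 1 without the filter, 0 to 1 with 1 tumour left out and 1 without replicates 1 and 4. The causes were not tested. Correlations of deviations from the group mean were -0.243 to 0.009 for same-numbered tumours and -0.242 to 0.25 for the others. These values show no sign of pairing by number, though 4 same-numbered pairs cannot exclude it. The block is given here for completeness. For the ratios to Ptprc the block left the differences as they were, and 4 pairs cannot give an exact p under 0.125. With the summed leukocyte markers as denominator the log2 difference was -0.028 for Pik3cd and -0.13 for Inpp5d. With Ptprc as denominator and 1 tumour left out, it ran from 0.18 to 0.49 for Pik3cd, 0.51 to 0.93 for Pik3cg, 0.65 to 1.24 for Pik3r5 and 0.17 to 0.48 for Inpp5d. Over 608 pairs of a pathway gene and an alternative, the direction and the side of the threshold held in 557, the sign changed in 32 (16 genes, called in neither fit), 5 gained and 14 lost a call, and 0 reversed a called change. Depth limits Irs1 and Inpp4b most, at 17 and 18 reads in their lowest tumours.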
